A study of Mus musculus with 32 samples.

Results

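In the jejunal epithelium of germ-free mice after a high-fat meal, 615 stretches of the genome held at least 5 HNF4A sites each, with no gap over 5 kb between neighbouring sites. These dense clusters held 3695 of the 34480 HNF4A sites of that condition, or 10.7%, and together spanned 8.12 Mb. Of the 615 clusters, 481 overlapped a protein-coding gene. The 569 genes they overlapped included Fabp2, Mgam, Vil1, Slc15a1 and the Apoa1-Apoc3-Apoa4 locus of the absorptive cell, and others such as Mertk and Lif. Most genes on lists of digestive enzymes (5 of 15 in a cluster), fat absorption (8 of 22) and nutrient transporters (4 of 12) overlapped no cluster. Among brush border structure genes 8 of 12 overlapped a cluster, beside 2.54% of all protein-coding genes. In colonized mice given the same meal, 57.7% of the cluster sites were still called in at least 2 of 4 libraries, against 53.6% of all sites of the germ-free condition. That share rested on the libraries with long lists: leaving out CV+HFM replicate 1 gave 30.6% and leaving out replicate 3 gave 31%. At least 2 calls were still required among the remaining lists, which is stricter. The matching share over all sites of the germ-free condition was not worked out.

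HNF4A is a nuclear receptor that sits on DNA as a homodimer and, in the intestine, is known for driving the genes of mature villus enterocytes, including those for the brush border and for taking up dietary fat. It recognises direct repeats of a short half-site with 1 base between the copies, and a variant of that element with the core CAAAGT. Where many sites of one factor lie close together, as in locus control regions and super-enhancers, the gene nearby is often one that marks the identity of the cell.

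HNF4A chromatin immunoprecipitation with sequencing (ChIP-seq) was done on jejunal intestinal epithelial cell (IEC) preparations from male C57BL/6J mice aged 10 to 12 weeks, collected 2 hours after a high-fat meal (HFM) given by gavage. GF+HFM mice were germ-free, and CV+HFM mice were born germ-free and colonized with a conventional microbiota for 14 days. There were 4 libraries of each condition, all groups carried the meal, and HNF4A libraries of unfed mice were not analysed here. The IECs were not sorted, and according to the methods such preparations also hold some crypts and villus mesenchymal cells. The files list positions of peaks only, so the strength of a peak and the depth of a library are unknown, and fewer bound cells cannot be told apart from weaker binding per cell.

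The 8 lists were merged into 45552 sites, peaks that shared at least 1 bp forming 1 site. The clusters were chosen on the GF+HFM peak calls themselves: a site entered when at least 2 of 4 GF+HFM lists called it, neighbours up to 5 kb apart were joined, and joined groups of at least 5 sites were retained. High GF+HFM call shares, the number of sites and the span are therefore given as a description, without a test. The GF+HFM lists held between 31061 and 36846 peaks and the CV+HFM lists 29345, 9206, 21033 and 4533, so the CV+HFM libraries differed more among themselves than the GF+HFM libraries did, and replicates 2 and 4 of CV+HFM stood apart by their short lists. A site is called kept below when at least 2 of the 4 CV+HFM lists call it. By calls in at least 1 list 80% of cluster sites would be kept, and by calls in at least 3 lists 30.5%. Positions are those of mm9 (NCBIM37), counted from 1, and genes are the protein-coding genes of GENCODE M1.

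The sequences under the sites were read first, because the cluster with the most sites had an unusual one. St3gal4 encodes a sialyltransferase, and its cluster, chr9:34878815-34902220, lay within an intron of this gene and held 19 sites in 23406 bp. The HNF4 core CAAAGTNCA, in which N is any base, occurred 19 times in this stretch, each time on the minus strand, and 18 of the 19 sites held it. Of the 18 spacings between neighbouring cores, 17 were within 10% of their median of 1226 bp, and the remaining one was 671 bp. The core and the 20 bases on each side of it took 6 forms, 3 of which accounted for 16 of the 19 copies. The forms below show how alike the copies are, 5′ to 3′ on the strand of the core, with the core in capitals.
Form 1, 6 copies, first copy at chr9:34882843-34882891, minus strand: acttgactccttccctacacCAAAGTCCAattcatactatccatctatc
Form 2, 5 copies, first copy at chr9:34879129-34879177, minus strand: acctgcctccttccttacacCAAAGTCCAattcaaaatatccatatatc
Form 3, 5 copies, first copy at chr9:34880324-34880372, minus strand: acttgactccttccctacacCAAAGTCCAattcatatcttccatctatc
Form 6, 1 copy, first copy at chr9:34900711-34900759, minus strand: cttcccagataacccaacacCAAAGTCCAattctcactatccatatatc

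Sites 1, 3 and 17 of this cluster, counted from its first base, all held form 2 and were each called in 1 CV+HFM list. Sites 10 and 13 held the same form and were called in 2 CV+HFM lists. The site called in all 8 libraries, site 11, held form 3, as did 4 sites called in 2 or 3 CV+HFM lists. Site 19, the only one without a core, was called in 2 GF+HFM lists and 1 CV+HFM list. Across the 19 sites, the GF+HFM lists called 19, 19, 18 and 18, and the CV+HFM lists called 19, 5, 15 and 1, in the order of the replicates. CV+HFM replicates 1 and 3 thus held most of the array and replicates 2 and 4 little of it.

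**Figure D1:**
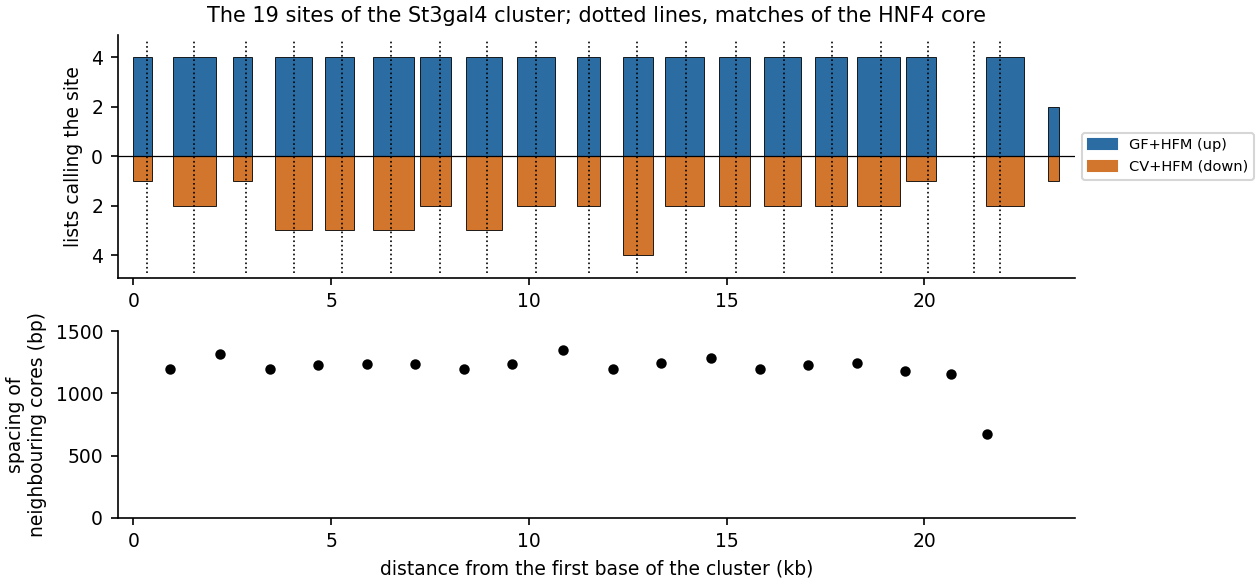
Upper panel, the 19 sites of the St3gal4 cluster as boxes along the distance from its first base (kb), with the number of GF+HFM lists calling each site drawn upwards and of CV+HFM lists downwards, and dotted lines at the 19 matches of the HNF4 core. Lower panel, the spacing between neighbouring cores in bp, 17 of 18 within 10% of the median of 1226 bp.

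The array was exceptional among the clusters. Of the 300 bp windows at its 19 sites, 17 shared at least 25% of their 20-base words with another window of the cluster. Likeness of this kind was absent from 606 of the 615 clusters, and no other cluster had more than 2 such sites. In 17 of the 19 windows fewer than 50% of the 31-base words occurred once in the genome, and the median over the windows was 0%. Short reads from one copy can then match others equally well, and the aligner places such a read at 1 of them, so how the calls divide among the copies is uncertain, and its part in the result was not tested. Over all cluster sites, 1.81% of windows were below 50% unique words, against 2.75% of the other GF+HFM sites. Without the St3gal4 array, 57.6% of cluster sites were kept.

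One other cluster, over Gm9994, also had unique words below 50% at each of its 5 sites, with a median of 11.5%, but no site like another of the cluster. It was picked out after its values were seen. The 200 bases around the centre of the most called site are shown for the clusters with the next most sites, over Slc13a2 and Krt19, and for the most and the least kept clusters. Capitals would mark the HNF4 core in its full form CAAAGTNCA or the direct repeat, and none of the 4 holds either. The shorter CAAAGT, which was not marked, occurs in the window near Fam108c and, on the minus strand, in the window near Hspa1b.
Slc13a2 cluster, chr11:78215378-78215577, plus strand: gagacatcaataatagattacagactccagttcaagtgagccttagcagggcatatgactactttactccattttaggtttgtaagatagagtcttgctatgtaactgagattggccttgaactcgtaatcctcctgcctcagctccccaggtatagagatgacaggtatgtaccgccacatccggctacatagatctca
Krt19 cluster, chr11:99999321-99999520, plus strand: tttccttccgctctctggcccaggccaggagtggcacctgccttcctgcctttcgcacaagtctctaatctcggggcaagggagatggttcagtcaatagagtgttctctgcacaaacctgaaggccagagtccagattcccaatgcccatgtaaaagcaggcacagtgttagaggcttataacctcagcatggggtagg
Cluster nearest to Fam108c, chr7:91315610-91315809, plus strand: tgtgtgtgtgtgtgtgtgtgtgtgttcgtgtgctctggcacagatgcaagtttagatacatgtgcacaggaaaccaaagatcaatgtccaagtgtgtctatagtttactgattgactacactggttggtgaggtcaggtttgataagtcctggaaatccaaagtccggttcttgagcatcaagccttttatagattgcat
Cluster nearest to Hspa1b, chr17:35083525-35083724, plus strand: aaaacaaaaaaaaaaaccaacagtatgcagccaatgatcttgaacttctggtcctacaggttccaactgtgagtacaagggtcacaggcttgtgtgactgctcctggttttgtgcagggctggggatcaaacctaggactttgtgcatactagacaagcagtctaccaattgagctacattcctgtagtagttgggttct

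The first of these was called in all 8 libraries, the next ones in 7 and the last in 5, and all 4 lay in introns or outside genes. Over all members, 10.6% of the 300 bp windows centred on cluster sites held the core CAAAGTNCA on either strand, against 14.3% of the windows at other GF+HFM sites and 1.5% of the 8527783 windows of the same length in the genome. Without the St3gal4 array the share at cluster sites was 10.1%. The direct repeat AGGTCANAGGTCA, allowing up to 2 mismatches, was found in 16.8% of cluster windows, 16.7% of other site windows and 3.6% of genome windows. A core can lie inside a match of the repeat, and 25.5% of cluster sites and 29.1% of other sites held at least one of them.

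Both elements were thus several times as frequent at cluster sites as in the genome, while the core was rarer at cluster sites than at other HNF4A sites. Of the 615 clusters, 133 had neither element at any site, and none had one at every site. Kept cluster sites held the core more often than those not kept, 12.8% against 7.48%, and the same order held at other GF+HFM sites, 16.1% against 12.2%. For the direct repeat the shares were 18.1% and 15% at cluster sites kept and not kept.

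Motifs of other intestinal factors were also counted, on both strands. AGATAAG, a site for GATA factors, which set up proximal intestinal identity, was found at 9.26% of cluster sites and 8.98% of other sites, against 4.42% of genome windows. TGANTCA, the AP-1 site, was at 15.3% of both kinds of site and at 8.83% of genome windows. CNATAAA, which covers sites of the homeobox factor CDX2, was no more frequent at cluster sites (14.7%) or other sites (15.9%) than in the genome (18.4%). The HNF1 palindrome GTTAATNATTAAC was rare throughout, at 0.0271% of cluster sites. GC content averaged 49.6% at cluster sites and 49.1% at other sites, against 41.8% of the genome. Beyond 1 kb of gene starts the core was at 11.2% of cluster sites and 15.6% of other sites, so the order was the same away from promoters. These matches describe letters in a window and do not mark bound sites.

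The layout of the clusters varied little for most and widely for a few. Clusters of 5 sites were the most common, with 302 of them, and 160 held 6 sites, 79 held 7, 37 held 8, 17 held 9 and 20 held 10 or more. The median span was 12442 bp, with quartiles at 10016.5 and 15602 bp, the shortest 3544 bp and the longest 41700 bp. Neighbouring sites were separated by a median of 1466.5 bp, and sites covered a median of 31.4% of a cluster's span. Density ranged from 0.242 to 1.41 sites per kb with a median of 0.469. Just outside the threshold were 646 joined groups of 4 sites, with a median span of 7975 bp and 58.4% of their sites kept, beside a median span of 10468 bp and 55.7% kept for the clusters of 5 sites.

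**Figure D2:**
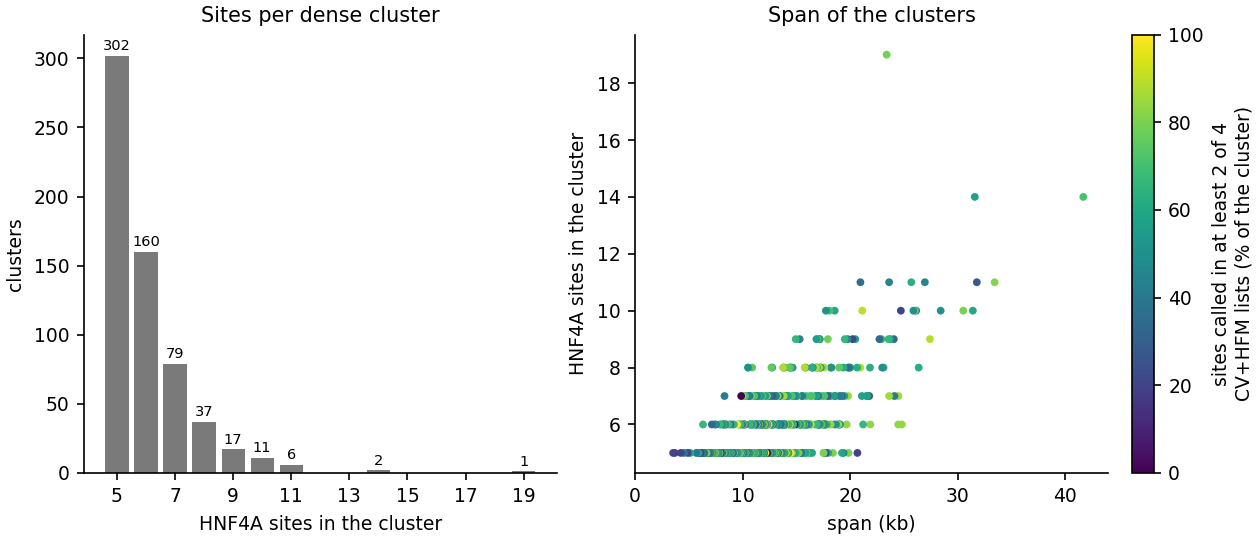
Left, the number of dense clusters by number of HNF4A sites (bars, counts above). Right, each of the 615 clusters by its span (kb) and number of sites, coloured by the percentage of its sites called in at least 2 of 4 CV+HFM lists; the St3gal4 array, with 19 sites in 23406 bp, stands above clusters of similar span.

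For their length, chromosomes 11 and 19 carried the most clusters, with 46 and 45.6 per 100 Mb (56 and 28 clusters), and also the most GF+HFM sites per Mb, 22 and 20.5. Chromosome X held 3 clusters, or 1.8 per 100 Mb, and 2.59 sites per Mb. No cluster lay on chromosome Y or on unplaced sequence.

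With respect to genes, 294 clusters (47.8%) contained the start of a protein-coding gene, 187 (30.4%) lay inside a gene without reaching its start, and 134 (21.8%) lay outside genes, at a median of 13085.5 bp from the nearest one. Cluster sites had a median distance of 9020 bp to the nearest gene start, against 17421 bp for other GF+HFM sites. Fewer of them lay within 1 kb of a start, 10.9% against 13.6%, and 45.4% against 43.3% lay in introns. A total of 569 genes, 2.54% of the 22380 annotated, had at least 1 bp in a cluster. Of the 8315 genes with any GF+HFM site in their body, 6.81% did. The median length of genes in a cluster was 31769 bp and of genes with any site 30514 bp, so clustered genes were of about the length of bound genes in general and longer than the median of all genes, 15420.5 bp.

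Several genes carried more than 1 cluster. The gene model Gm20388 had the most, with 5 clusters, 33 sites and 22 kept. Clusters among these also overlapped Irf8, Gse1, Rab4a or Spire2, so this count runs over several other genes. Chn2, which encodes a Rac GTPase-activating protein, had 3 clusters with 18 sites, 11 of them kept, and Coro2a, a coronin, had 3 clusters with 16 sites and 10 kept. Slc9a3r1, the scaffold of apical membrane transporters also known as NHERF1, had 2 clusters with 13 sites and 8 kept.

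The gene lists, written from general knowledge of the intestine, differed in how many of their genes overlapped a cluster. Among 12 genes of brush border structure 8 overlapped a cluster (66.7%), among 22 genes of fat absorption and chylomicron assembly 8 did (36.4%), among 15 digestive enzymes of the brush border 5 (33.3%) and among 12 transporters of sugars, peptides and amino acids 4 (33.3%). Of 26 transcription factors of the intestine 7 overlapped a cluster (26.9%), and of 28 genes of fatty acid oxidation and ketogenesis 3 (10.7%). By contrast 1 of 17 stem cell and proliferation genes did, Lrig1, and 0 of 16 genes of secretory lineages, 0 of 12 microbe-induced defence genes and 0 of 12 markers of immune, mesenchymal and endothelial cells. Any GF+HFM site in the gene body was found for 11 of the 12 brush border genes and for 2 of the 12 markers of those other cells. The share over all protein-coding genes was 2.54%, and over those with any GF+HFM site in their body 6.81%. The defence genes were short, with a median length of 2896 bp, as were the secretory genes at 6893.5 bp, and 4 of the 12 and 6 of the 16 had any GF+HFM site in their body. Longer than the 15420.5 bp of all genes were brush border structure (39178 bp), enzyme (43563 bp), transporter (43246.5 bp), transcription factor (39814 bp) and fat absorption genes (19333.5 bp). So were the lists with fewer overlaps of fatty acid oxidation (27713 bp), stem cell (30435 bp) and other cell type genes (18965 bp). The part of gene length was not tested.

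In the brush border, Tmigd1, an adhesion protein of the microvillus membrane, lay in a cluster of 11 sites of which 3 were kept. The actin bundler gene Vil1 lay in a cluster of 8 sites with 7 kept, and Espn, another actin bundler, in one of 7 sites with 6 kept. Over the 8 clusters of this list, 34 of 52 sites were kept, or 65.4%, beside 57.7% of all cluster sites. In digestion, Mgam, which encodes maltase-glucoamylase, had 11 sites with 5 kept, the trehalase gene Treh 6 with 5 kept, and Enpep, an aminopeptidase, 5 with 2 kept, and 17 of 32 sites (53.1%) were kept over the list.

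Fat absorption genes lay in 6 clusters with 36 of 48 sites kept, or 75%, the highest share of any of these lists. Beside Fabp2 and the apolipoprotein locus, described below, Creb3l3, a transcription factor of lipid metabolism, lay in a cluster of 8 sites with 6 kept. Transporter genes lay in 4 clusters with 10 of 25 sites kept, or 40%, below the 57.7% of all cluster sites. The peptide transporter Slc15a1 had 9 sites with 4 kept, the neutral amino acid transporter Slc6a19 6 with 2 kept and Slc6a20a, the proline transporter, 5 with 2 kept. Transcription factor genes lay in 7 clusters with 18 of 41 sites kept, or 43.9%. Among them were Nr1i2, the xenobiotic receptor PXR, with 8 sites and 5 kept, Rxra, the partner of many nuclear receptors, with 7 and 3 kept, and Hnf4g, the paralog of HNF4A, with 6 and 2 kept. For fatty acid oxidation, the peroxisomal transporter gene Abcd3 had 5 sites with 4 kept, Ppara 5 with 3 kept and the thiolase gene Acaa2 5 with 1 kept.

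Fat absorption and transporter genes were also compared in single CV+HFM libraries. Sites in the fat absorption clusters were called at 87.5%, 52.1%, 79.2% and 35.4% in CV+HFM replicates 1 to 4, and sites in the transporter clusters at 64%, 28%, 48% and 16%. Over all cluster sites the shares were 77.2%, 29.4%, 59.8% and 15.5%, so the transporter sites lay near them in replicates 2 and 4. These lists were picked as the ends of the kept shares, which use the same calls. In GF+HFM libraries the ranges were 91.7% to 97.9% and 88% to 92%. These lists have few members that share libraries, and no test was made.

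After St3gal4, the clusters with the most sites were those of Slc13a2 and Krt19, with 14 each. Slc13a2 encodes a sodium-coupled transporter of citrate and succinate in the apical membrane. Its cluster, chr11:78213936-78255635, was the longest of all at 41700 bp, with 8 sites in the gene, 6 upstream and the closest 302 bp from the start. The GF+HFM lists called 13, 12, 14 and 13 of its sites and the CV+HFM lists 13, 4, 10 and 2, with 10 kept. Krt19 encodes a keratin of simple epithelia, and its cluster, chr11:99999182-100030788, had 8 sites upstream, 3 in the gene and 3 downstream. There the GF+HFM lists called 11, 10, 14 and 14 sites and the CV+HFM lists 9, 3, 9 and 0, with 8 kept and 2 called in all 4 GF+HFM and no CV+HFM list.

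Fabp2 encodes the intestinal fatty acid binding protein, an abundant carrier of long-chain fatty acids in the enterocyte. Its cluster, chr3:122571054-122604506, held 11 sites, 8 upstream of the gene, 2 in it and 1 downstream, with the closest 96 bp from the start. The GF+HFM lists called 10, 10, 10 and 11 of them and the CV+HFM lists 10, 6, 9 and 4. Of the 11 sites 9 were kept, and 4 were called in all 8 libraries, including the site at the gene start and 3 sites between 16179 and 26048 bp upstream of it. Tmigd1, with as many sites over 31795 bp, differed: its sites were called 10, 7, 11 and 10 times in GF+HFM and 8, 1, 3 and 0 times in CV+HFM, and no site was called in all 8 libraries.

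Further clusters of 11 sites lay over Mgam, Cmbl and Agpat2. Mgam had 9 of its sites in the gene and 2 upstream, called 9, 7, 11 and 10 times in GF+HFM and 9, 0, 5 and 0 times in CV+HFM. Cmbl encodes a hydrolase, and 7 of its 11 sites were kept. Agpat2 encodes an acyltransferase of phosphatidic acid synthesis, its cluster also lies within the gene model Gm20532, and 4 sites were kept, 3 of them called in all 8 libraries. Sema7a, a membrane-anchored semaphorin, lay in a cluster that held 10 sites with 6 kept.

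**Figure D3:**
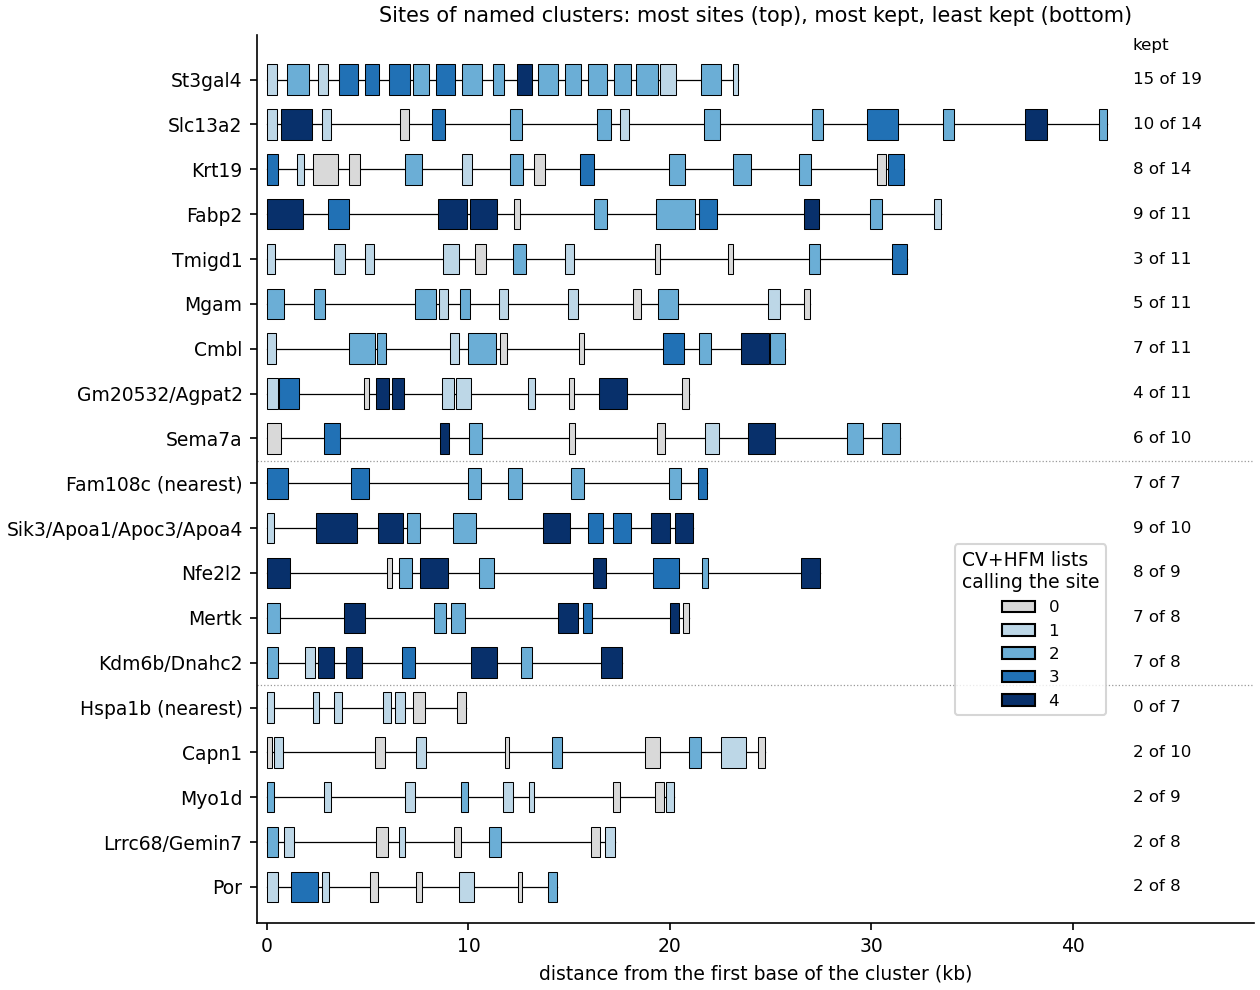
Each row is 1 cluster, with its sites as boxes along the distance from the first base of the cluster (kb) and their shade giving the number of CV+HFM lists, 0 to 4, that call the site; the numbers at the right give sites kept of all sites. The top 9 rows are clusters with the most sites, the next 5 the highest and the last 5 the lowest share kept among clusters of at least 7 sites, ties going to more sites and then the longer span, from 7 of 7 near Fam108c to 0 of 7 near Hspa1b.

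There were 153 clusters with at least 7 sites, and those at either end of the kept share are described next, ties going to more sites and then to the longer span. The most kept was a cluster outside genes at chr7:91315251-91337081, 14848 bp from Fam108c, with 7 of 7 sites kept. All 7 were called in each GF+HFM library, and 7, 1, 7 and 2 in the CV+HFM libraries. At the Apoa1-Apoc3-Apoa4 locus, which encodes apolipoproteins of chylomicrons and high-density lipoprotein, 9 of 10 sites were kept in chr9:46029380-46050521, a cluster that also reaches the end of Sik3. Its sites were called 10, 9, 10 and 10 times in GF+HFM and 9, 7, 10 and 5 times in CV+HFM. The 5 of 10 called in CV+HFM replicate 4 compare with 15.5% of all cluster sites in that library.

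Nfe2l2 encodes NRF2, the regulator of antioxidant genes, and 8 of its 9 sites were kept, with CV+HFM calls of 8, 4, 8 and 5. Mertk, a receptor kinase for the engulfment of dying cells, and Kdm6b, a demethylase of histone H3 lysine 27, each had 7 of 8 sites kept, as had the shorter clusters over Lif, Vil1, Gramd1b and Gna11. The clusters of Nfe2l2, Mertk, Kdm6b and the apolipoproteins had between 3 and 5 sites called in all 8 libraries, and those 4 shorter ones between 0 and 3.

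At the other end, the cluster at chr17:35080134-35090007, 3374 bp from the inducible heat shock protein gene Hspa1b, had 0 of 7 sites kept. Its sites were called 5, 3, 7 and 6 times in GF+HFM, 5 times in CV+HFM replicate 1 and not at all in the other 3 CV+HFM libraries. Of its 7 sites 1 was called in all 4 GF+HFM libraries. Capn1, a calcium-dependent protease, had 2 of 10 sites kept, Myo1d, an unconventional myosin of the brush border, 2 of 9, and Por, the reductase that supplies electrons to cytochromes P450, 2 of 8, as had the cluster over Lrrc68 and Gemin7. In these 4 clusters CV+HFM replicate 4 called 0 sites and replicate 2 called 0 or 1. The GF+HFM lists did not call all of their sites either. They called 8, 4, 7 and 8 sites at Capn1 and 7, 6, 6 and 7 at Myo1d. At Lrrc68 and Gemin7 they called 8, 6, 6 and 8, and at Por 7, 6, 7 and 6. Over all clusters, sites called in exactly 2 GF+HFM lists were kept in 2.53% and those called in all 4 in 78.7%.

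Over all 615 clusters the share of sites kept had a median of 60% with quartiles at 40% and 71.4%. All sites were kept in 25 clusters and none in 8. In 133 clusters at least 5 sites were kept. At least 1 site called in all 8 libraries was found in 339 clusters (55.1%). Each cluster held at least 5 sites, any of which could have this pattern. Of single sites, 13.7% of cluster sites and 9.99% of all GF+HFM sites were called in all 8 libraries. At least 1 site called in all 4 GF+HFM and no CV+HFM list was found in 107 clusters. Of all cluster sites, 3.14% had that last pattern, against 3.68% of all GF+HFM sites. Among 3080 neighbouring pairs, both sites were kept in 33.7%, neither in 18.1% and 1 of them in 48.2%. Sites at the ends of clusters were kept in 57.1% and inner sites in 58%. When the same rule was applied to the CV+HFM calls it gave 99 dense clusters, of which 98 (99%) overlapped a GF+HFM cluster, and these were 98, or 15.9%, of the 615. The lists of CV+HFM replicates 2 and 4 held only 9206 and 4533 peaks, and the part of list length in these counts was not tested. The overlap of all CV+HFM sites with GF+HFM sites was not worked out, so these counts are a description only.

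The share kept did not follow location strongly. It was 57.7% in clusters that contained a gene start, 56.4% in those inside genes and 59.5% in those outside. Single cluster sites within 1 kb of a gene start were kept in 48.4%, below the 57.4% of intronic cluster sites, and the same order was seen at other GF+HFM sites, 49% and 53.6%. By number of sites, the share kept was 50.4% for GF+HFM sites with no neighbour within 5 kb, 55.9% for groups of 2 to 4, 55.7% for clusters of 5, and between 57.9% and 60.4% for larger ones.

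Whether cluster sites were called more often than other sites was asked within each CV+HFM library. The number of CV+HFM calls played no part in which sites were chosen, although CV+HFM peaks entered the merging that set the bounds of the sites. CV+HFM replicates 1 to 4 called 77.2%, 29.4%, 59.8% and 15.5% of cluster sites and 74%, 24.7%, 56% and 11% of the other GF+HFM sites. Cluster sites were higher in 4 of 4 libraries, by 3.19, 4.77, 3.78 and 4.54 percentage points, with a mean of 4.07 ± 0.725 (SD, n = 4). Against other sites with a neighbour within 5 kb, the ones most like cluster sites, the mean difference was 1.96 points. For the 4.07 points the exact sign-flip permutation test, two-sided, gave p = 0.125, which is the smallest that 4 libraries allow, so this design cannot pass 0.05. The difference was small beside the spread of call shares between the CV+HFM libraries, 45.5% ± 28.1 (SD, n = 4). In GF+HFM libraries the shares were 92.6%, 80.9%, 91.3% and 92.4% in clusters and 91.6%, 80.9%, 87.8% and 88.8% outside, values that the choice of sites had used.

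**Figure D4:**
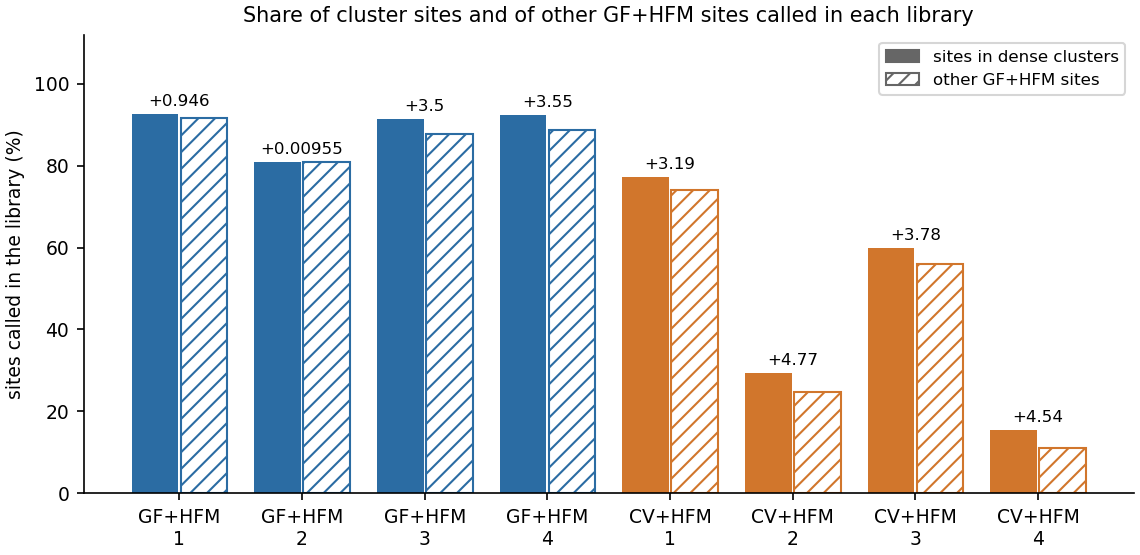
Percentage of the 3695 cluster sites (filled bars) and of the 30785 other GF+HFM sites (hatched bars) called in each library, GF+HFM in blue and CV+HFM in orange, with the difference in percentage points above. Cluster sites are higher by 3.19 to 4.77 points in the CV+HFM libraries.

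Peaks at cluster sites were also wider. Expressed as a percentile of width within the list, peaks at cluster sites averaged 59.5, 55.1, 56.8 and 56.3 in CV+HFM replicates 1 to 4 and peaks at other sites 52.6, 50.4, 50.7 and 52.7. The difference was 5.33 ± 1.46 percentile points (SD, n = 4), positive in 4 of 4 libraries (exact sign-flip permutation test, two-sided, p = 0.125, the smallest possible). In GF+HFM the median peak width was 382, 339, 487 and 556 bp at cluster sites and 331, 305, 423 and 485 bp at other sites.

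Because wide peaks were called more often everywhere, the call share was compared again among sites of like width. Within quartiles of GF+HFM width the mean difference in CV+HFM libraries turned to -2.29 percentage points (exact sign-flip permutation test, two-sided, p = 0.25). Of cluster sites, 34.3% fell in the widest quartile, against 23.9% of the others, and in that quartile 95.6% and 96.1% were kept. The libraries differed there: CV+HFM replicate 4 called 39.8% of cluster sites against 35.9% of others. Replicates 1 to 3 called 98.5% against 99.2%, 66% against 66.5% and 95.7% against 96.2%. In the quartile below the widest, cluster sites were kept less often, 68.8% against 74.1%, in the next 27.6% against 36.7%, and in the narrowest 6.5% against 9.43%. In these narrower quartiles each CV+HFM library called a lower share of cluster sites than of others. Of sites called in exactly 2 GF+HFM lists 2.53% were kept in clusters and 4.16% elsewhere, and of sites called in all 4 GF+HFM lists 78.7% and 75.7%.

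Each GF+HFM library was also read at sites chosen without its calls. The sites were those merged from all 8 lists, so its peaks still helped to set their bounds, but a site entered when 2 or more of the remaining 3 lists of the condition called it, which gave between 463 and 553 clusters. The GF+HFM library left out called 91.8%, 79.9%, 90.4% and 91.1% of their sites in turn, on average 88.3% ± 5.62 (SD, n = 4), against 90.7%, 79.6%, 86.7% and 87.9% of the other sites. In CV+HFM the same sites were called at 48.5% ± 29.5 (SD, n = 4), and CV+HFM replicate 1 alone, with 79.6% to 82.3%, came near to the left-out GF+HFM libraries. Cluster sites exceeded other sites by 2.07 ± 1.62 percentage points in the left-out GF+HFM libraries and by 4.02 ± 0.874 in the CV+HFM libraries (SD, n = 4 each). The gap between the conditions was thus not particular to cluster sites, and was slightly larger at other sites.

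Finally, each list was clustered on its own peaks, so that no library was judged by sites chosen in another. The GF+HFM lists formed 775, 479, 681 and 668 dense clusters and the CV+HFM lists 452, 16, 176 and 8. The groups did not overlap, and the means were 651 ± 124 and 163 ± 208 (SD, n = 4 each), a difference of -488 (p = 0.0286 by a two-sided exact permutation test, which can give no smaller value, and 0.0571 after Benjamini-Hochberg adjustment over 4 tests). The share of a list's peaks that lay in its own clusters was 13%, 9.29%, 12.2% and 11.8% in GF+HFM and 9.13%, 0.978%, 4.92% and 1.21% in CV+HFM, a difference of -7.5 percentage points (p = 0.0286 and 0.0571 adjusted, by the same exact permutation test). Lists with more peaks formed more clusters, apart from GF+HFM replicates 3 and 4, which were close in both. The share of peaks in clusters also rose with list length, apart from that pair and CV+HFM replicates 2 and 4. Every GF+HFM list was longer than every CV+HFM list, so neither test can tell the condition from the length of the list. With only the 4533 widest peaks of every list, the length of the shortest one, they formed 3, 5, 2 and 3 clusters in GF+HFM and 3, 1, 1 and 8 in CV+HFM, and the difference in means was 0 (p = 1, two-sided exact permutation test). On chromosomes 1 to 19, X and Y alone, CV+HFM replicate 4 formed 3. So few clusters remained at this length that the comparison says little about either condition.

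**Figure D5:**
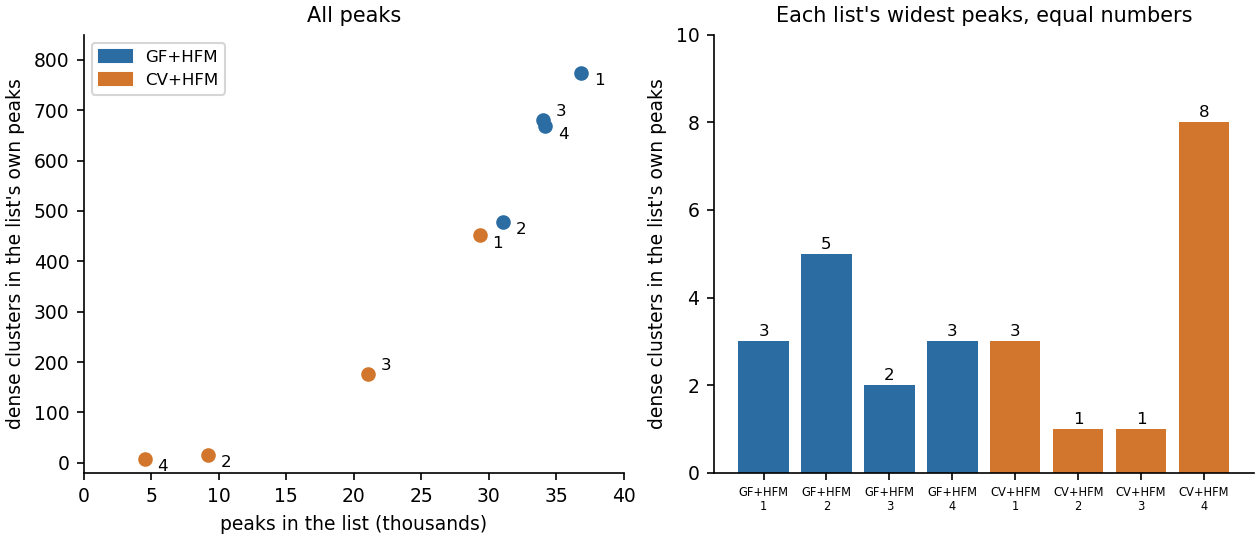
Left, dense clusters formed by each list's own peaks against the number of peaks in the list, GF+HFM in blue and CV+HFM in orange, labelled by replicate. Right, the same count when each list is reduced to an equal number of its widest peaks, from 1 to 8 clusters per list.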

How the data were processed

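HNF4A ChIP-seq peak lists of jejunal IECs from 4 GF+HFM and 4 CV+HFM samples were analysed. The RNA-seq and H3K27ac libraries were not analysed here. The authors mapped single-end reads to mm9 with Bowtie2 at default settings and called peaks in each library with MACS2 2.1.1.20160309 against input, at a false discovery rate of 0.05 and a bandwidth of 300 bp. The deposited values are positions in bp, with no count, score, fold or p-value, so depth is unknown and peak width within a list was the only reading of strength. Replicates were not pooled. The labels do not say what separates the replicates of a condition, but according to the paper each HNF4A replicate was a separate mouse. The p-values measure only the spread between these libraries.

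Lists were merged and joined in Python 3.11.15 with numpy 2.4.6, and tests were exact enumerations over 70 relabellings of the libraries or 16 sign flips. The joining was checked on 60 simulated clusters, of which 100.0% were recovered with 0 false ones. Every simulated site was called in at least 2 GF+HFM lists with the same bounds in each list, so this checks the code only. Shares are of sites, which share libraries. Genes follow GENCODE M1, and clusters were named by the protein-coding genes they overlap or else the nearest. Sequence windows of 300 bp on the mean midpoint of the GF+HFM peaks were read from NCBIM37, indexed with samtools 1.23.1, and the 72 GF+HFM sites on unplaced sequence had none. Peak coordinates were within the chromosome lengths of that build. Words of 31 bases were counted on both strands of chromosomes 1 to 19, X and Y.

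Clusters were named by rule: the 10 with the most sites, the 5 with the highest and 5 with the lowest share kept among those with at least 7 sites, and up to 3 genes per list with the most sites. One cluster that met the rule is not reported here. The clusters and gene lists were chosen with earlier results of these data known. Genes with several clusters, and the windows around the cores of St3gal4, were chosen after their values were seen. For the printed sites, the most called site of a cluster was taken, ties going to more HNF4 cores and then the lower start.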

Additional observations from a re-analysis of the deposited data

Results flagged for a closer look

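A library was looked at again where it lay far from the other 3 of its condition relative to their whole range (Dixon's ratio above its 95% critical value). Of 50 groups of 4 values 5 met this, and 4 of them are given here. Chance gives about 1 in 20 for values on a continuous scale. Among tied counts of a few sites any single step meets the threshold, so that rate does not hold for them. GF+HFM replicate 2 called 80.9% of the cluster sites, against 91.3% to 92.6% in the other GF+HFM libraries. At the cluster near Hspa1b CV+HFM replicate 1 called 5 sites and the other CV+HFM libraries 0. At the Apoa1-Apoc3-Apoa4 cluster GF+HFM replicate 2 called 9 sites against 10, and at the Fabp2 cluster GF+HFM replicate 4 called 11 against 10, which are steps of 1 site.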

How the results depend on the processing

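The number of dense clusters was 133 with a gap of 2 kb, 1317 with 10 kb, 1261 with a minimum of 4 sites, 74 with 8, 384 and 196 with sites called in at least 3 or all 4 GF+HFM lists, and 254 with peaks of at least 300 bp only. It was between 490 and 616 when a library was left out. The share of cluster sites kept was 80% by calls in at least 1 and 30.5% by calls in at least 3 CV+HFM lists, 20.8% when a library's peaks had to cover 50% of a site, and when a library was left out it was between 30.6% and 62.6%, lowest without CV+HFM replicate 1 (30.6%) and without replicate 3 (31%). With a library left out, at least 2 calls were still required among the remaining lists of its condition. The difference in call share was 1.96 against other sites with a neighbour within 5 kb, and turned to -0.195 under the 50% cover and to -2.29 within width quartiles, and the cause was not tested. The width difference kept its direction under all 18 alternatives run. Clusters per library differed by -214 with peaks of at least 300 bp and 0 with equal numbers of widest peaks, and the share of peaks in them by -4.87 and 0.0165, and by -1.52 with a gap of 2 kb. When a library was left out the differences ran from -584 to -436 clusters and from -9.19 to -6.48 percentage points, with p = 0.0571 by the exact permutation test when it was a GF+HFM library. With the replicate number as a block they were -488 and -7.5 (exact sign-flip permutation test, p = 0.125, the smallest possible), although same-numbered libraries deviated together with correlations of only -0.0535 to 0.0582 and 1 of 4 GF+HFM libraries matched its own number best. Some peak names carry a letter A, whose meaning is not stated. Chosen after seeing the data, comparison within lists with that letter gave -412 and -6.12 (p = 0.2), within lists without it -666 and -10.8 (p = 0.333), and with the 2 longest CV+HFM lists alone -337 and -4.54 (p = 0.0667), by exact permutation tests. In both letter groups the sizes, 2 against 3 and 2 against 1, cannot reach 0.05. Depth is unknown, and a site missing from a short list was not detected there rather than shown to be absent.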
